A study of Drosophila melanogaster with 93 samples.

Results

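The genes described here are the odorant-binding protein (Obp) genes of *Drosophila melanogaster* together with *lush*, and the measurement is how much of each gene and its surroundings was covered by peaks of the repressive histone modification H3K9me3 in neurons. The members were every annotated gene whose symbol is *Obp* followed by digits, plus *lush*, which gave 52 of 18164 genes on the major chromosome arms. The rule itself uses no H3K9me3 value. Chromosome arm 2R holds 29 of them, 3R holds 12, X holds 6, 3L holds 3 and 2L holds 2.

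Odorant-binding proteins are small soluble proteins, most of which are secreted by the support cells of chemosensory sensilla into the lymph that bathes the receptor neurons, where they can bind odorants, tastants or pheromones. LUSH, the best studied, works with the receptor Or67d in the response to the male pheromone cis-vaccenyl acetate, a cue that neurons expressing *fru* use in courtship. Other members act elsewhere: *Obp49a* in taste, *Obp59a* in sensing humidity, *Obp56h* in male mating behavior, and *Obp8a*, *Obp22a*, *Obp51a* and *Obp56e* to *Obp56g* in seminal fluid. H3K9me3 is the mark to which heterochromatin protein 1 binds, and it is known for its place in silent, repeat-rich chromatin near centromeres and on chromosome 4.

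The study compared male and female neurons at 3 stages and in 2 neuron sets with a sequential ChIP-seq method. All flies carried a UAS-Gal4 transgene and a UAS-Chromatag transgene, which makes histone H2B with 3xFLAG, a biotin ligase recognition peptide (BLRP) and mCherry, along with the biotin ligase BirA. In the *fru P1* groups, *fru P1-Gal4* drove it in neurons that express *fru P1* transcripts, which give Fru transcription factors specific to males. These groups were males and females at 48hr APF (hours after puparium formation), as 1-day adults and as 10-12 day adults. In the *elav* groups, *elav-Gal4* drove it in neurons in general, in 1-day adult males and females. Pupae were collected whole and adults as heads, so that stage and tissue collected cannot be told apart in any comparison with 48hr APF. Chromatin was first pulled down with the H3K9me3 antibody and then by the biotin on the tagged histone. There were 4 libraries in each group and 3 in 10-12 day *fru P1* females, 31 in all, each from its own pool of flies. The *fru P1* libraries of a group were all called against the same pooled input, and each group had its own. Stage or sex and input thus cannot be told apart in comparisons between *fru P1* groups. Within such a pool, a lower mark in every cell and a mark in fewer cells cannot be told apart.

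The libraries held 2119672 to 6306013 tags after filtering and 18036 to 28267 broad peaks, which covered 20.0 to 32.1% of the genome. The peaks were shallow, with a median fold enrichment of 1.43 to 1.72 over input in each library, and no library had more than 0.94% of its peaks at a q-value of 0.05 or less. The label was checked against where this mark is known to lie. The last 1 Mb of each large arm next to the centromere was 1.57 to 12.6% covered, less than the rest of the autosomes (21.2 to 36.4%) in each of the 31 libraries, and chromosome 4 was more covered than the rest of the autosomes in 8 libraries. The peak lists thus did not show the pericentric enrichment for which H3K9me3 is known, and how this bears on the values below was not tested. On the X, 0.84 to 7.53% was covered in the 16 male libraries and 19.5 to 31.3% in the 15 female libraries, so X members are given apart from the 46 autosomal members throughout.

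The value reported for each member is its coverage, the percent of the gene body plus 3 kb on either side that lay under a peak in a library, and differences between conditions are in percentage points. The peaks over the members were as shallow as elsewhere: of 2092 peaks over their windows in the 31 libraries, 114 (5.45%) had a −log10 p of 2 or more, the highest reached 3.05 with a fold enrichment of at most 2.21 for any of them, and 0 had a q-value of 0.05 or less. Each value below therefore rests on weak peaks, and with only peaks of −log10 p of at least 2 counted, the median autosomal member was 0% covered in each of the 8 conditions. All 52 members had coverage in some library, and 20 had it in every library. Neighboring members share flanks, so that members of a cluster are not independent measurements. *Obp50b* and *Obp50c* have the same span in the annotation and hence the same values.

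*Obp85a* and *Obp18a* were the most and the least covered of the 23 members outside the arm holding 29 of them, by mean over all 31 libraries. No sequence is shown from that arm. *Obp18a* lies on the X, of which little was covered in male libraries. *Obp83cd* and *Obp99a* were picked after their values were seen because their coverage changed with stage in both sexes. Promoter sequences are shown for these genes and for *lush*. Each runs 5′ to 3′ on the gene's strand from 250 bases before to 50 bases after the annotated start, in the dm6 assembly as given by RefSeq, and capitals mark the letters TATAAA on either strand, the core of the TATA box.
*lush* (3L:19606041-19606340, minus strand): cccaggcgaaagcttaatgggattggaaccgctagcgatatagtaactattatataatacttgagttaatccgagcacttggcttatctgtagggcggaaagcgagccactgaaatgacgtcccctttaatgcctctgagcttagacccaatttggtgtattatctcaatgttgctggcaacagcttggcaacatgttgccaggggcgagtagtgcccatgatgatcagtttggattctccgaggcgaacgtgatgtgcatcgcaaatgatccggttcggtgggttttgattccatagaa
*Obp85a* (3R:8420548-8420847, minus strand): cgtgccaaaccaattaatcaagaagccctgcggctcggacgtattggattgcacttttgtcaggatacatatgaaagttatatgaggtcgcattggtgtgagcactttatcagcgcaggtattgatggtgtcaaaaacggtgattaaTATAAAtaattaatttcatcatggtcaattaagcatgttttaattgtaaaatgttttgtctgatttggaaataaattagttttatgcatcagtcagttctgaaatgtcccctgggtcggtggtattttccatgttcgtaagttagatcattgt
*Obp18a* (X:19135819-19136118, minus strand): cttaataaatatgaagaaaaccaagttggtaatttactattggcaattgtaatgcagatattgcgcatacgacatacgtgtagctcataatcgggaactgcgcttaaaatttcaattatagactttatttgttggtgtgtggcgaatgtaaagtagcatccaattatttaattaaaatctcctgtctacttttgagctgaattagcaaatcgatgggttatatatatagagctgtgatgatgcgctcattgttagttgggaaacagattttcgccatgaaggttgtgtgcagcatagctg
*Obp83cd* (3R:6107884-6108183, plus strand): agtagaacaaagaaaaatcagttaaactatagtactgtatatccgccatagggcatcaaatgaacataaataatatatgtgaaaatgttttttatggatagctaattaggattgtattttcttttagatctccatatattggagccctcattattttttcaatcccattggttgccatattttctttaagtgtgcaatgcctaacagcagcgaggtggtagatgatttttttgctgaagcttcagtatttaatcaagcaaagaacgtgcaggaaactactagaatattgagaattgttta
*Obp99a* (3R:29671407-29671706, plus strand): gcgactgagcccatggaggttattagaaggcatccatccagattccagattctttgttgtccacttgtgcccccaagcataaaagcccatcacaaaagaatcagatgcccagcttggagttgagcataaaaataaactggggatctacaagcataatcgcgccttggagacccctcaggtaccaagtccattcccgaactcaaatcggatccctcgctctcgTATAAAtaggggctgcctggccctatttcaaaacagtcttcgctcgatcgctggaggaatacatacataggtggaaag
In these windows TATAAA was found for *Obp85a* and *Obp99a*, close upstream of the start in *Obp99a*. Over windows of the same length, it was present on one or the other strand in 36 of 52 members (69.2%), against 43.9% of all genes and 45.8% of protein-coding genes. Among the 23 members outside the arm with 29 of them it was present in 11 (47.8%), close to the share of all genes. A peak overlapped the window of *Obp85a* in 18 of 31 libraries, that of *Obp99a* in 15, that of *Obp83cd* in 10, that of *lush* in 9 and that of *Obp18a* in 2. The window of *Obp99a* was under a peak in 4 of 4 male and 3 of 4 female *fru P1* libraries of 1-day adults, and at 48hr APF in 0 of 4 male and 1 of 4 female libraries.

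Autosomal members were more covered than most genes. Averaged over the 31 libraries, their median coverage was 37.5%, against 23.4% for all 15351 autosomal genes (quartiles 15.6 and 34.7%). Of the 46, 37 lay above the median of all autosomal genes and 31 above the upper quartile. The members are short, with a median length of 786.5 bp against 1602 bp, and their windows had a median GC content of 42.4% against 43.4%. Set beside genes within 1 percentage point of their own GC content, 37 of 46 were again the more covered, and the median difference over all 46 was 10.98 points. In these averages over the 31 libraries the excess was spread over the window. The 3 kb upstream had a median of 40.4% in members and 21.5% in all genes, the gene body 39.1% and 23.2%, and the 3 kb downstream 36.7% and 22.5%. The chemoreceptor families had similar medians, given with the stages below, and these levels are not called particular to the Obp genes.

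The most covered members were *Obp50d*, with a mean of 62.5% over the 31 libraries, *Obp50e* with 62.2%, and *Obp50b* and *Obp50c* with 56.4%. They lie together in a group of 5 genes on 2R that encode Plus-C proteins, Obps with additional conserved cysteines. *Obp50d* was 69.9, 70.4, 46.7 and 68.2% covered in male and 61.1, 46.4, 72.4 and 34.8% in female *fru P1* libraries at 48hr APF, 62.1, 45.02, 100 and 46.6% in 1-day males and 72.8, 92.99, 99.4 and 47.9% in 1-day females, and 26.01, 33.4, 27.5 and 68.4% in 10-12 day males and 62.2, 38.1 and 52.4% in 10-12 day females. In *elav* neurons it was 70.9, 100, 60.1 and 44.9% covered in males and 100, 71.6, 72.8 and 73.6% in females. In males 3 of 4 libraries of 10-12 days lay below every 1-day library, but *Obp50d* passed the test in no comparison.

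The least covered autosomal members were *Obp44a* (9.17%) and *Obp73a* (14.4%), followed by *Obp28a* (14.8%) and *Obp93a* (14.9%). *Obp18a*, on the X, averaged 12.6%, but this mean includes the male libraries, in which little of the X was covered. In *fru P1* females it averaged 18.7% at 48hr APF, 38.2% at 1 day and 16.1% at 10-12 days, and in *elav* females 22.9%. *Obp44a*, which is strongly expressed in glia of the brain, was covered in most libraries but little in most: 12.6, 3.83, 10.2 and 0% in 48hr APF males and 32.7, 20.1, 10.05 and 6.17% in 48hr APF females, 0, 16.3, 7.84 and 9.80% in 1-day males and 11.5, 3.57, 0 and 10.1% in 1-day females, 0, 24.3, 5.47 and 17.4% in 10-12 day males and 10.6, 13.7 and 11.3% in 10-12 day females, and 4.32, 0, 3.96 and 5.79% in *elav* males and 9.95, 10.97, 11.8 and 0% in *elav* females. *Obp73a*, the longest member, had 7.47, 12.1, 24.1 and 18.97% in 48hr APF males and 13.2, 22.5, 15.2 and 6.45% in 48hr APF females, 6.92, 11.7, 31.1 and 18.1% in 1-day males and 21.6, 10.9, 18.5 and 25.2% in 1-day females, 21.9, 7.11, 14.9 and 27.9% in 10-12 day males and 14.7, 13.5 and 2.94% in 10-12 day females, and 6.31, 18.1, 15.2 and 9.02% in *elav* males and 2.15, 1.63, 7.19 and 19.2% in *elav* females. Neither gene passed the test in any comparison.

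*lush* (3L:19604398-19606090) was also among the less covered members, 45th of 52 with a mean of 18.3%, in a ranking that pools the sexes for X members too. Its coverage was 0, 8.15, 14.8 and 14.2% in 48hr APF males and 18.3, 14.4, 22.4 and 29.96% in 48hr APF females, 0, 15.3, 13.9 and 10.2% in 1-day males and 26.2, 33.6, 22.8 and 39.8% in 1-day females, and 18.2, 15.7, 54.2 and 11.1% in 10-12 day males and 24.97, 52.7 and 3.76% in 10-12 day females. In *elav* neurons *lush* had 17.8, 2.83, 7.07 and 29.1% in males and 5.81, 2.72, 19.9 and 16.1% in females. The 1-day female *fru P1* libraries lay above the 1-day males without overlap, but the difference of -20.8 points did not pass the test (adjusted p = 0.181), nor did that between *fru P1* and *elav* females (19.5 points, adjusted p = 0.140). Male replicate 3 at 10-12 days stood far above the other males.

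A peak lay in the gene body of most members in most conditions. Counting a peak as present where at least 50% of a condition's libraries had one, 35 of 52 members had a peak in 48hr APF males and 35 in 48hr APF females, 41 in males and 45 in females at 1 day, 30 in males and 30 in females at 10-12 days, and 39 in *elav* males and 41 in *elav* females. The shares were 67.3, 67.3, 78.8, 86.5, 57.7, 57.7, 75 and 78.8% of members in that order, against 55.1, 66.0, 65.4, 69.1, 69.4, 64.8, 50.9 and 51.7% of all genes, X included. On autosomes they were 76.1, 73.9, 82.6, 84.8, 65.2, 56.5, 76.1 and 78.3% of members, against 62.8, 66.7, 72.0, 69.3, 76.2, 63.9, 55.5 and 52.2% of genes. Of the 6 X members, 0, 1, 3, 6, 0, 4, 4 and 5 had a peak in the same order. A peak was present in all 8 conditions for 12 members, among them *Obp83a* (OS-F, made in antennal trichoid sensilla), *Obp47a*, *Obp50b* and *Obp99c*. None of the 52 was without a peak in every condition.

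Around the starts of autosomal genes, coverage within 500 bp of the start was compared with coverage beyond 2 kb from it. Over all autosomal genes the difference was -8.64 points in male and -9.09 points in female *fru P1* neurons at 1 day, and -2.79 points in *elav* males and -2.77 points in *elav* females. The dip was shallower at the autosomal members in 1-day *fru P1* neurons, with -1.55 points in males and -1.62 points in females. In *elav* neurons the members were more covered near the start, by 6.08 points in males and 5.62 points in females. These are means over genes and were not tested.

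**Figure D1:**
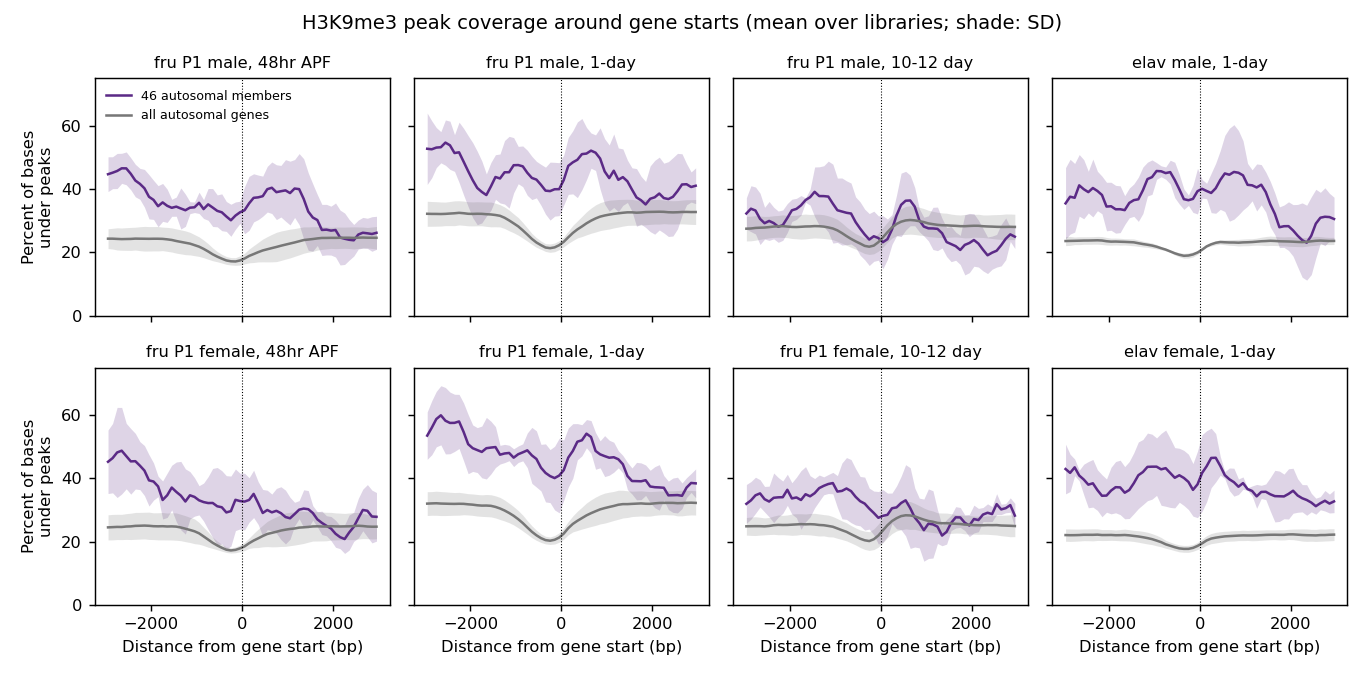
Mean H3K9me3 peak coverage by distance from the annotated gene start. The x axis is the distance in bp in the direction of transcription (bins of 100 bp). The y axis is the percent of bases under peaks, averaged over genes and over the libraries of a condition, for autosomal members and all autosomal genes. All autosomal genes dip near the start in 1-day *fru P1* neurons (-8.64 points in males, -9.09 in females), while the members lie above them there.

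By stage, coverage of the autosomal members in *fru P1* neurons was highest in 1-day adults as deposited, but relative to each library's mean over autosomal genes the median member was at a 1-day minus 48hr APF difference of -2.81 points in males and 2.80 in females. Their median was 31.5 ± 5.57% in 48hr APF males and 29.5 ± 5.76% in 48hr APF females, 44.9 ± 7.88% in 1-day males and 45.1 ± 4.28% in 1-day females, and 27.4 ± 4.76% in 10-12 day males and 29.3 ± 4.63% in 10-12 day females (mean ± SD of library medians, n = 4, and 3 for 10-12 day females). All autosomal genes moved less, with medians of 20.2% in 48hr APF males and 21.3% in 48hr APF females, 28.2% in 1-day males and 27.4% in 1-day females, and 26.3% in 10-12 day males and 23.4% in 10-12 day females. The 1-day stage held the highest mean for 28 of 46 members in males, 35 in females and 24 in both sexes, against 48.0, 50.7 and 36.3% of autosomal genes. In the deposited, unscaled peaks, Or, Gr and Ir genes, the chemoreceptor families, were likewise highest at 1 day: from 48hr APF through 1 day to 10-12 days, Or genes had medians of 35.2, 45.01 and 31.6% in males and of 30.1, 42.4 and 23.7% in females, those of Gr genes 31.02, 44.1 and 27.6% in males and 30.9, 42.8 and 22.8% in females, and those of Ir genes 32.5, 42.6 and 29.3% in males and 31.1, 47.2 and 28.1% in females. The pattern is therefore shared with these families.

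**Figure D2:**
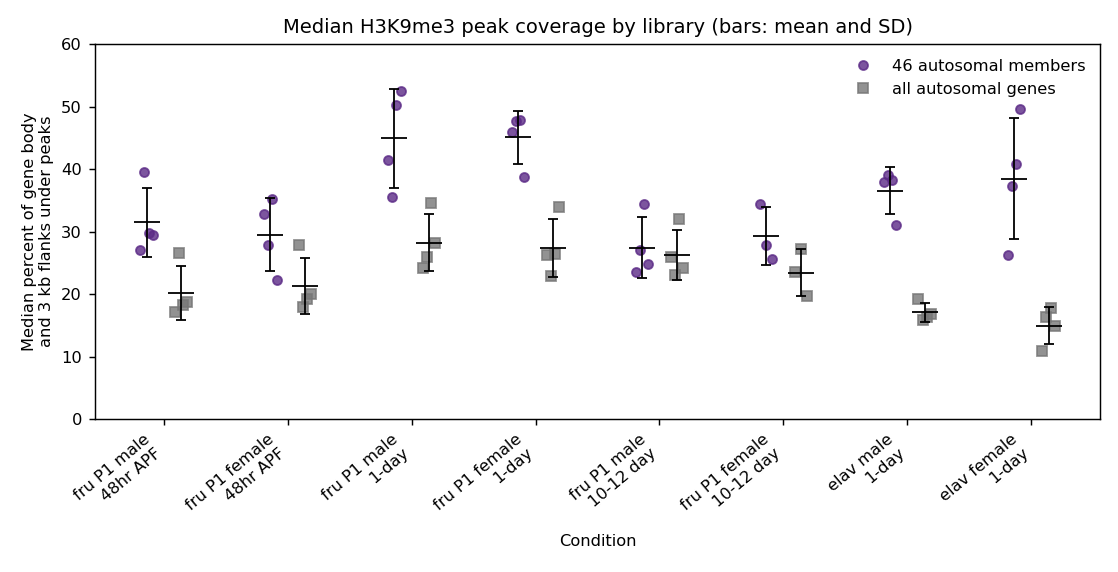
Median H3K9me3 peak coverage (y axis, percent of gene body and 3 kb flanks) of autosomal genes by condition (x axis). Points are libraries and bars their means, for the 46 autosomal members and for all autosomal genes. The members' medians lie above all genes in each condition and are highest at 1 day, at 44.9% in males and 45.1% in females. The values are unscaled. After scaling to the library mean, the median of the members' 1-day minus 48hr APF differences was -2.81 points in males and 2.80 in females.

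From 48hr APF to 1 day, 3 autosomal members rose in males (*Obp83cd*, *Obp83ef* and *Obp99a*), 7 rose in females (the same 3 with *Obp49a*, *Obp50a*, *Obp58c* and *Obp58d*), and none fell in either sex. Of all autosomal genes tested, 6.95% rose in males and 10.4% in females, so that the members' shares of 6.52% and 15.2% stood near and somewhat above the background. Differences were positive for 35 of 46 members in males and 36 in females, with a median of 7.87 and 14 points (all genes 7.08 and 5.69). These calls depended on the scale: once coverage was divided by each library's mean over autosomal genes, 0 members passed, and the calls of all autosomal genes moved from 1047 higher and 134 lower to 148 and 201 in males, and from 1568 and 273 to 253 and 381 in females.

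*Obp83cd* and *Obp83ef* lie with *Obp83g* in a cluster on 3R, and each encodes a protein with a pair of Obp domains. *Obp83cd* was 48.3, 81.5, 65.4 and 57.4% covered in males at 1 day and 0, 33.8, 34.2 and 16.7% at 48hr APF, a difference of 41.99 points ± 9.45 (SE, adjusted p = 0.00642). In females it was 58.9, 65.4, 72.6 and 56.6% covered at 1 day and 15.5, 43.5, 14.4 and 20.8% at 48hr APF, a difference of 39.8 points ± 9.45 (SE, adjusted p = 0.00583). The groups did not overlap in either sex, and the call held without any single library of the 2 stages. It was lost in both sexes with the gene body alone, with 1 kb flanks, with peaks of fold enrichment of at least 1.5 or of −log10 p of at least 2, and after scaling, and with that −log10 p the difference in males was -1.57 points. At 10-12 days it had 14.4, 46.6, 41.1 and 27.96% in males and 45.5, 25.6 and 29.3% in females, and in *elav* neurons 32.8, 52.5, 64.4 and 44.7% in males and 52.6, 49.04, 52.5 and 35.7% in females. In males the *elav* values reached into the range of the 1-day *fru P1* libraries, and in females they lay below it.

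*Obp99a* (3R:29671657-29672334) had the largest rise among males. It was 66.1, 41.4, 56.5 and 52.9% covered in males at 1 day and 17.3, 18.5, 4.75 and 5.51% at 48hr APF, a difference of 42.7 points ± 9.47 (SE, adjusted p = 0.00563). Females had 52.9, 32.97, 50.4 and 40.8% at 1 day and 24.7, 0, 11.7 and 8.84% at 48hr APF, a difference of 32.9 points ± 9.47 (SE, adjusted p = 0.0197). The 1-day libraries were higher without overlap in both sexes. The female call was lost without 48hr APF replicate 2 or 1-day replicate 1 or 3 (29.2 to 37.4 points over all omissions). At 10-12 days *Obp99a* had 24.6, 22.6, 37.3 and 14.1% in males and 59.2, 8.78 and 17.7% in females.

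Among the female calls, *Obp58d*, a Plus-C gene, had the largest difference. It was 72.3, 60.1, 69.8 and 85.1% covered at 1 day and 38.05, 22.6, 45.2 and 17.6% at 48hr APF, a difference of 40.9 points ± 12.1 (SE, adjusted p = 0.0230), and the groups did not overlap. Its call was lost without 48hr APF replicate 2 or 4 or 1-day replicate 4 (36.5 to 45.7 points). *Obp58c*, next to it, differed by 37.1 points ± 12.6 (SE, adjusted p = 0.0457) without overlap, a call lost without 48hr APF replicate 2, 3 or 4 or 1-day replicate 1, 3 or 4 (31.6 to 43.4 points). *Obp49a*, whose protein in taste sensilla is needed for bitter compounds to suppress the sweet response, differed by 30.5 points ± 9.84 (SE, adjusted p = 0.0358), and its call was lost without 48hr APF replicate 1 or 3 or 1-day replicate 1, 2 or 3 (23.8 to 36.9 points). For *Obp49a* the libraries of the 2 stages overlapped.

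**Figure D3:**
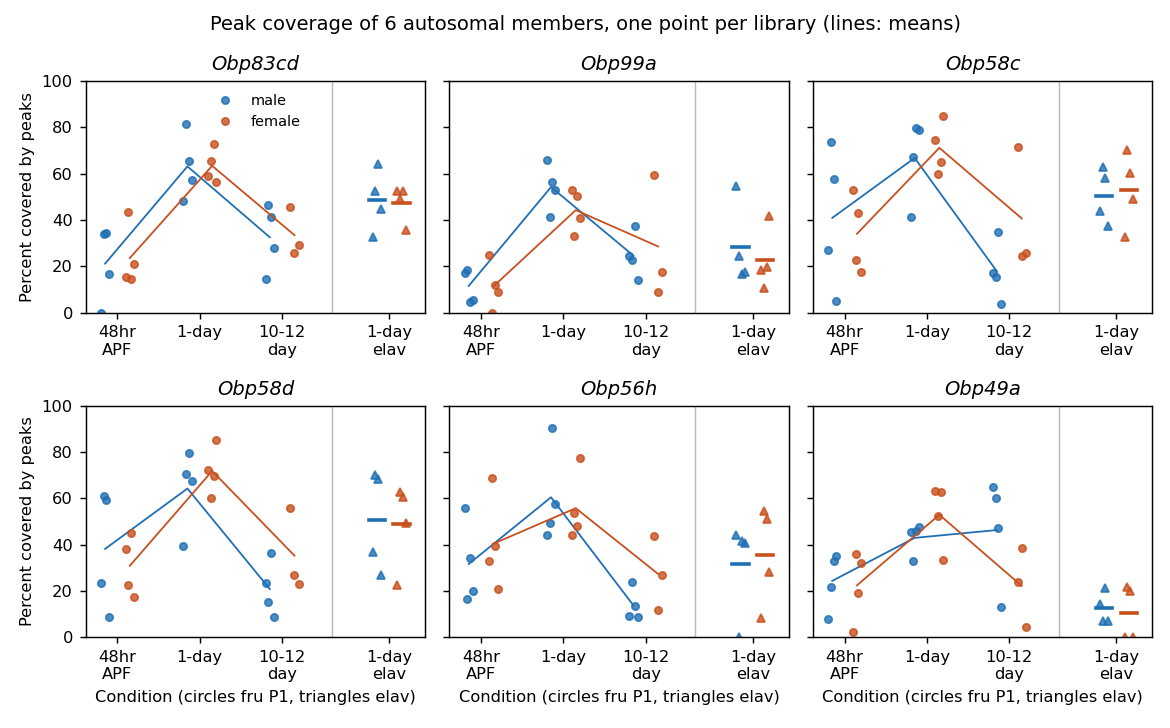
Coverage by stage of 6 autosomal members that passed the test. The x axis is the condition, the y axis the percent of the gene body and 3 kb flanks under peaks, points are libraries and bars the group means. *Obp83cd* and *Obp99a* are higher at 1 day than at 48hr APF without overlap in both sexes.

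From 1 day to 10-12 days, 4 autosomal members fell in males (*Obp56h*, *Obp58c*, *Obp58d* and *Obp83cd*) and 4 in females (*Obp50b* and *Obp50c*, which share a span, *Obp56i* and *Obp83g*), with none in common and none that rose. Of all autosomal genes, 4.14% fell in males and 7.07% in females, against 8.70% of members in each sex. The female share counts *Obp50b* and *Obp50c* separately though their values are the same, so it is not read as above the background. The median difference was -16.3 points in males and -16.1 in females (all genes -2.46 and -4.64), and 34 of 46 differences were negative in males and 37 in females. After division by each library's mean autosomal coverage, the median differences of members were -8.97 and -6.81 points, but 0 members passed, and the calls of all autosomal genes moved from 358 higher and 623 lower to 202 and 22 in males, and from 443 and 1064 to 655 and 174 in females.

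*Obp58c* had the largest fall in males, to 17.04, 15.3, 34.9 and 3.80% at 10-12 days, against 41.5, 67.2, 79.6 and 78.9% at 1 day, a difference of -49.04 points ± 12.6 (SE, adjusted p = 0.0214). The groups did not overlap, and the call was lost without 1-day replicate 3 or 4 or 10-12 day replicate 4 (-57.5 to -44.4 points). *Obp56h* (2R:19815554-19816204) had 9.08, 23.9, 13.5 and 8.74% in males at 10-12 days and 44.3, 49.5, 90.5 and 57.5% at 1 day, a difference of -46.6 points ± 12.1 (SE, adjusted p = 0.0220). Its groups did not overlap either, and its call was lost without 1-day replicate 3 or 10-12 day replicate 1 (-52.02 to -36.6 points). *Obp58d* and *Obp83cd* passed with -43.4 and -30.6 points (adjusted p = 0.0309 and 0.0496). Leaving out single libraries ended these calls in 6 of 8 fits each: 1-day replicates 2, 3 and 4 for both, with 10-12 day replicates 1, 2 and 4 for *Obp58d* (-51.7 to -38.2 points) and 1, 3 and 4 for *Obp83cd* (-35.6 to -24.5 points).

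In females, *Obp83g* had 30.9, 14.4 and 14.2% at 10-12 days and 67.02, 41.1, 76.6 and 47.96% at 1 day, a difference of -38.3 points ± 12.9 (SE, adjusted p = 0.0483), and *Obp56i* had 15.8, 16.96 and 8.47% at 10-12 days and 24.6, 55.1, 56.1 and 68.6% at 1 day, a difference of -37.3 points ± 10.4 (SE, adjusted p = 0.0200). Neither pair of groups overlapped, and both members were lower at the later stage. The call for *Obp83g* was lost without 1-day replicate 1 or 3 or any one of the 3 libraries of 10-12 days (-44.02 to -32.2 points), and that for *Obp56i* without 1-day replicate 3 or 4 or 10-12 day replicate 3 or 4 (-46.2 to -31.5 points). For *Obp50b* and *Obp50c* the difference was -36.2 points ± 12.2 (SE, adjusted p = 0.0486) with overlapping groups, and it was lost without 1-day replicate 1, 2 or 3 or any 10-12 day library (-48.2 to -31.4 points).

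Between 10-12 days and 48hr APF, 0 of 52 members passed in males by limma, with 5 at an unadjusted p of 0.05 or less, where 1.7% of all genes passed. In females 0 of 46 autosomal members passed, with 2 at an unadjusted p of 0.05 or less, where 0.863% of autosomal genes passed. The median differences were -3.73 and -1.60 points in males and females (all genes 5.199 and 1.64). The stage differences were also compared between the sexes. For 1 day minus 48hr APF, 10-12 days minus 1 day and 10-12 days minus 48hr APF, males minus females, 0 of 52 members passed, with 6 at an unadjusted p of 0.05 or less in each, where 0.0394, 0.0563 and 0.00563% of all genes passed. A call in one sex alone is thus not shown to differ from the other sex.

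Each cluster of 3 or more members was also read as 1 region, the union of its members' windows, with coordinates in dm6. The region from *Obp59a* to *Obp58d* (2R:22699695-22710772) was 16.7, 50.2, 42.8 and 5.38% covered in 48hr APF males and 48.9, 13.96, 30.9 and 28.2% in 48hr APF females, 34.6, 60.4, 73.3 and 54.1% in 1-day males and 67.1, 54.9, 57.4 and 76.7% in 1-day females, and 14.4, 20.3, 42.4 and 5.32% in 10-12 day males and 56.6, 22.4 and 19.05% in 10-12 day females. It was 43.9, 48.6, 50.2 and 24.95% in *elav* males and 34.4, 56.4, 47.8 and 41.1% in *elav* females. In each sex 1 library of 10-12 days, replicate 3 in males and replicate 1 in females, reached above the lowest 1-day library. The region from *Obp83cd* to *Obp83g* (3R:6105134-6115302) had 0, 33.4, 36.5 and 12.5% in 48hr APF males and 11.6, 53.5, 16.1 and 39.2% in 48hr APF females, 43.99, 72.4, 57.6 and 60.3% in 1-day males and 52.3, 56.4, 64.3 and 45.6% in 1-day females, and 10.8, 41.3, 45.8 and 20.9% in 10-12 day males and 36.9, 19.1 and 21.9% in 10-12 day females. In *elav* neurons it had 29.7, 46.8, 59.4 and 44.5% in males and 39.3, 45.4, 48.05 and 38.4% in females. Among *fru P1* libraries, those of 1-day adults were above the other stages of their sex, apart from female replicate 2 at 48hr APF and male replicate 3 at 10-12 days, which reached into their range, as did 3 *elav* male libraries and 1 *elav* female library. Regions were not part of the fit and have no test.

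The *Obp50a* to *Obp50e* region (2R:14367331-14378385, 11055 bp) averaged 55.2 ± 12.1% in 48hr APF males and 50.98 ± 10.6% in 48hr APF females, 54.7 ± 17.8% in 1-day males and 70.6 ± 25.7% in 1-day females, and 31.7 ± 15.9% in 10-12 day males and 40.95 ± 8.14% in 10-12 day females (SD, n = 4, and 3 for 10-12 day females). It averaged 59.04 ± 21.7% in *elav* males and 72.4 ± 17.4% in *elav* females. The largest cluster by number of genes, *Obp56a* to *Obp56f* (2R:19694723-19716976), averaged 40.8 ± 9.95% in 48hr APF males and 32.2 ± 8.96% in 48hr APF females, 43.97 ± 11.8% in 1-day males and 42.4 ± 6.10% in 1-day females, and 25.9 ± 12.7% in 10-12 day males and 26.2 ± 2.33% in 10-12 day females, with 44.03 ± 7.10% in *elav* males and 34.1 ± 13.4% in *elav* females. The mean of each of these regions was lowest at 10-12 days in both sexes.

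*Obp57a* to *Obp57c* (2R:20500584-20508758) averaged 36.3 ± 8.26% in 48hr APF males and 40.9 ± 15.8% in 48hr APF females, 53.2 ± 26.7% in 1-day males and 37.2 ± 13.1% in 1-day females, and 29.2 ± 13.4% in 10-12 day males and 38.6 ± 5.83% in 10-12 day females, with 39.3 ± 16.8% in *elav* males and 46.8 ± 9.75% in *elav* females. The spreads of the stages overlapped. Close by on 2R, *Obp57d* and *Obp57e* (2R:20544816-20553117), known for their part in the taste of host plant acids, were less covered in each condition, with 19.02 ± 10.7% in 48hr APF males and 18.4 ± 13.5% in 48hr APF females, 17.02 ± 8.17% in 1-day males and 32.7 ± 15.5% in 1-day females, and 17.8 ± 7.06% in 10-12 day males and 27.1 ± 10.9% in 10-12 day females, and 22.9 ± 9.28% in *elav* males and 16.8 ± 11.9% in *elav* females.

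Few autosomal members passed the test between males and females. At 48hr APF 0 of 46 passed by limma, with 3 at an unadjusted p of 0.05 or less, where 0.438% of autosomal genes passed. In 1-day *fru P1* neurons 0 passed, with 2 at an unadjusted p of 0.05 or less, where 0.465% of autosomal genes passed, and in *elav* neurons 0 passed, with 1 at an unadjusted p of 0.05 or less, where 0.106% passed. In 10-12 day *fru P1* neurons, *Obp56i* and *Obp93a* were higher in males, 2 of 46 members (4.35%) against 0.598% of autosomal genes. The median difference, males minus females, was 1.63 points at 48hr APF, -1.02 at 1 day, -5.04 at 10-12 days and 0.41 in *elav* neurons. After division by each library's mean autosomal coverage that of *elav* neurons was -3.60, and the others kept their sign. The calls of all autosomal genes then moved from 44 higher and 26 lower to 8 and 11 at 1 day, from 90 and 49 to 64 and 132 at 10-12 days, and from 12 and 4 to 29 and 25 in *elav* neurons.

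*Obp56i* (2R:19864717-19868714), a seminal fluid gene, had 50.95, 59.2, 42.7 and 33.7% in 10-12 day males and 15.8, 16.96 and 8.47% in 10-12 day females, a difference of 32.9 points ± 10.4 (SE, adjusted p = 0.0418). *Obp93a* (3R:21128950-21129717) had 10.7, 69.2, 42.3 and 20.8% in 10-12 day males and 10.03, 8.47 and 0% in 10-12 day females, a difference of 29.6 points ± 9.16 (SE, adjusted p = 0.0362). The sexes did not overlap for either gene, but both calls were fragile. That for *Obp56i* was lost without male replicate 1, 2 or 3 or any female library (28.7 to 37.2 points), and that for *Obp93a* without male replicate 2 or 3 or any female library (18.4 to 37.9 points). With only the gene body counted, *Obp93a* had a difference of -0.94 points, and neither was called once autosomal genes were fitted alone.

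The 6 X members were lower in males, as X genes were in general. Coverage was lower in males for all 6 at each stage and in *elav* neurons. The calls were 0 of 6 at 48hr APF, with 2 at an unadjusted p of 0.05 or less, 2 at 1 day (*Obp8a* and *Obp18a*), 5 at 10-12 days (all but *Obp18a*) and 2 in *elav* neurons (*Obp8a* and *Obp18a*). Of all X genes, 30, 48.9, 52.6 and 20.9% were lower in males in these comparisons, against 0, 33.3, 83.3 and 33.3% of the 6 members, and 6 genes are few to set against a background. The whole chromosome moved the same way, with 0.84 to 7.53% of the X covered in male and 19.5 to 31.3% in female libraries, and its part in the members' differences was not tested. The paper reports that male X DNA was recovered and sequenced well, yet very few peaks could be called on it. Changed settings and other peak callers added few. The sex differences of X members are thus differences in called peaks, and whether the mark itself differed was not tested.

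*Obp8a* (X:9214876-9215699), another seminal fluid gene, had 0, 12.7, 0 and 0% in 1-day *fru P1* males and 51.8, 48.8, 52.7 and 38.5% in 1-day females, a difference of -44.8 points ± 7.12 (SE, adjusted p = 5.06e-05). At 10-12 days it had 0, 0, 4.32 and 0% in males and 46.2, 41.1 and 11.4% in females, a difference of -31.8 points ± 7.69 (SE, adjusted p = 0.00597), and in *elav* neurons 18.3, 0, 18.4 and 16.3% in males and 24.4, 52.96, 50.7 and 41.1% in females, a difference of -29.1 points ± 7.12 (SE, adjusted p = 0.0125). Each time the sexes did not overlap. At 48hr APF it had 0% in each male library and 19.1, 23.8, 22.1 and 0% in females. The call at 10-12 days was lost without female replicate 1 or 3 (-42.6 to -25.2 points) and that in *elav* neurons without male replicate 2 or female replicate 2 or 3 (-35.04 to -24.7 points). With a −log10 p of at least 2 the *elav* difference was 1.77 points.

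*Obp18a* (X:19135081-19135868) had 4.52, 0, 0 and 0.692% in 1-day *fru P1* males and 27.99, 51.6, 23.5 and 49.8% in 1-day females, a difference of -36.9 points ± 5.44 (SE, adjusted p = 1.98e-05). In *elav* neurons it had 0% in each male library and 14.6, 21.02, 29.7 and 26.3% in females, a difference of -22.9 points ± 5.44 (SE, adjusted p = 0.00922). Both calls held without any single library. At 48hr APF *Obp18a* had 0, 0, 12.96 and 0% in males and 21.1, 16.03, 13.6 and 24.1% in females, and at 10-12 days 4.70, 0, 0 and 0% in males and 14.1, 18.1 and 16.2% in females. Its male values were thus at or near 0% in most libraries of every condition.

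The *Obp19a* to *Obp19d* cluster on the X includes *Obp19d*, made in the antenna. As a region (X:20412744-20423979, 11236 bp) it was 7.53, 16.8, 0 and 0% covered in 48hr APF males and 41.9, 4.32, 0 and 3.44% in 48hr APF females, 25.5, 9.34, 26.5 and 0% in 1-day males and 28.2, 16.95, 40.7 and 41.5% in 1-day females, and 0, 3.08, 8.54 and 0% in 10-12 day males and 32.7, 49.96 and 30.99% in 10-12 day females. In *elav* neurons it was 11.4, 3.57, 22.5 and 15.9% in males and 27.03, 16.1, 38.2 and 30.02% in females. Female replicate 1 at 48hr APF stood alone at 41.9%, while the other 3 females of that stage had at most 4.32%. At 10-12 days, where the sexes differed most, *Obp19b* was 0% in each male library and 40.6, 48.7 and 40.8% in females, a difference of -43.4 points ± 9.27 (SE, adjusted p = 0.00220). *Obp19c* and *Obp19d*, also 0% in each 10-12 day male library, had 34.8, 47.5 and 44.5% and 33.2, 48.5 and 42.6% in females, in that order, with differences of -42.3 points ± 9.13 (SE, adjusted p = 0.00241) and -41.4 points ± 8.88 (SE, adjusted p = 0.00227). *Obp19a* differed by -39.4 points ± 10.6 (SE, adjusted p = 0.0138), a call lost without female replicate 3 (-45.2 to -30.9 points).

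**Figure D4:**
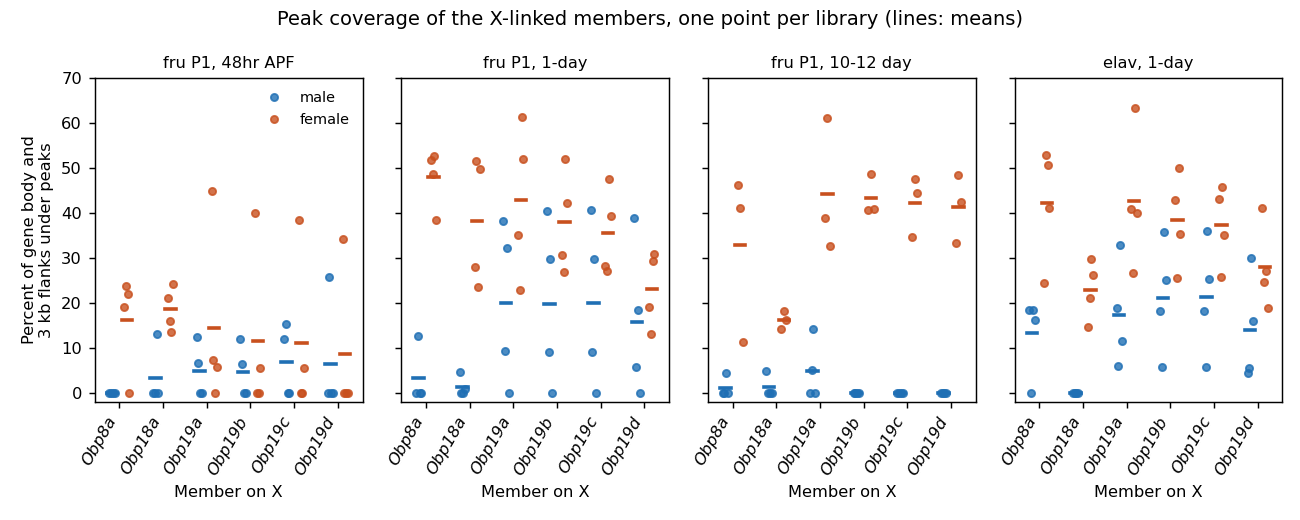
Coverage of the 6 X members by condition. Each panel is a neuron set and stage, and the x axis holds the members, males left of females. The y axis is the percent of the gene body and 3 kb flanks under peaks, points are libraries and bars group means. *Obp8a* and *Obp18a* are at most 12.7% covered in 1-day *fru P1* males and at least 23.5% in 1-day females, and female replicate 1 at 48hr APF lies apart for *Obp19a* to *Obp19d*.

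The stage calls among X members were all in females, though the difference between the sexes passed for none of them, as given above. In females 5 of 6 (*Obp8a*, *Obp18a*, *Obp19a*, *Obp19b* and *Obp19c*) rose between 48hr APF and 1 day, where 18.3% of X genes rose. In males 0 of 6 passed, where 0.074% of X genes did. *Obp8a* had 51.8, 48.8, 52.7 and 38.5% in 1-day females and 19.1, 23.8, 22.1 and 0% at 48hr APF, a difference of 31.7 points ± 7.12 (SE, adjusted p = 0.00395), and was called without any single library. The values of *Obp19a*, *Obp19b* and *Obp19c* overlapped between the 2 stages because of replicate 1 at 48hr APF, and their differences were 28.5, 26.6 and 24.5 points (adjusted p = 0.0495, 0.0356 and 0.0485).

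Without that replicate the differences of these 3 were the largest of their ranges, and the calls stood (22.3 to 38.6 points, 21.9 to 36.2 points and 20.5 to 33.7 points over all omissions), while they were lost without 48hr APF replicate 2, 3 or 4 or 1-day replicate 3 or 4, and those of *Obp19a* and *Obp19c* also without 1-day replicate 1. *Obp18a* differed by 19.5 points ± 5.44 (SE, adjusted p = 0.0162), with its call lost without 48hr APF replicate 3 or 1-day replicate 2 or 4 (15.1 to 24.4 points). After scaling to the autosomal mean, 0 of the 6 were called in this comparison.

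From 1 day to 10-12 days, *Obp18a* alone of the 6 fell in females, where 7.44% of X genes fell: 14.1, 18.1 and 16.2% at 10-12 days, against 27.99, 51.6, 23.5 and 49.8% at 1 day, a difference of -22.1 points ± 5.87 (SE, adjusted p = 0.0151), without overlap. This call held without any single library but was lost with 1 kb flanks, the enrichment cutoff, the arcsine scale, the libraries compared alone and after scaling. Between 10-12 days and 48hr APF, *Obp19d* alone was higher in females, where 7.18% of X genes were: 33.2, 48.5 and 42.6% at 10-12 days, against 34.3, 0, 0 and 0% at 48hr APF, a difference of 32.9 points ± 8.88 (SE, adjusted p = 0.0456). Its groups overlapped, and its call was lost without 48hr APF replicate 2, 3 or 4 or 10-12 day replicate 3 or 4 (29.3 to 41.4 points). In males none of the 6 passed from 1 day to 10-12 days or between 10-12 days and 48hr APF.

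Between neuron sets at 1 day, the autosomal members had a median of 44.9 ± 7.88% in *fru P1* and 36.6 ± 3.76% in *elav* males, and of 45.1 ± 4.28% in *fru P1* and 38.5 ± 9.75% in *elav* females (SD, n = 4). All autosomal genes had 28.2% in *fru P1* and 17.1% in *elav* males, and 27.4% in *fru P1* and 15.0% in *elav* females. In males 0 of 52 members passed, with 8 at an unadjusted p of 0.05 or less, where 0.287% of all genes passed. In females *Obp49a* and *Obp84a* were higher in *fru P1* neurons, 2 of 46 (4.35%) where 5.03% of autosomal genes were. The members' median difference was 7.21 points in males and 6.79 in females (all genes 8.91 and 9.47). On the scale of the library mean it turned to -3.02 and -4.47, where 1 autosomal member was called higher and 1 lower in females, and the calls of all autosomal genes moved from 757 higher and 122 lower to 201 and 614 in females. The 2 neuron sets also differed in processing, since the *elav* libraries held fewer tags (2295291 to 3012794) and were called against the input of their own replicate, so neuron set and input cannot be told apart.

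*Obp49a* (2R:12690059-12690955) had 62.98, 52.3, 62.8 and 33.6% in *fru P1* females and 0, 21.5, 19.97 and 0% in *elav* females, a difference of 42.5 points ± 9.84 (SE, adjusted p = 0.0142), without overlap. In males it had 45.4, 32.99, 45.9 and 47.4% in *fru P1* neurons and 14.2, 7.15, 21.5 and 7.09% in *elav* neurons. Its female call was lost without *elav* replicate 1 (39.1 to 48.97 points). *Obp84a* (3R:7250725-7251957), made in the antenna, had 31.4, 49.7, 36.4 and 62.1% in *fru P1* females and 0, 19.5, 13.02 and 12.1% in *elav* females, a difference of 33.8 points ± 8.56 (SE, adjusted p = 0.0209). The groups did not overlap, and the call was lost without *fru P1* replicate 4 or *elav* replicate 1 (28.03 to 38.2 points). In the test of whether the difference between neuron sets itself differs between the sexes, 0 of 52 members passed, with 2 at an unadjusted p of 0.05 or less, where 0% of all genes passed.

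Other genes of chemical communication were read from the same fit: 20 CheA and CheB genes, which encode small secreted proteins of gustatory bristles, 8 Npc2 genes, lipid carriers of which some are secreted in the antenna, and 8 genes of pheromone sensing and transport. From 48hr APF to 1 day in females, 3 CheA and CheB genes rose (*CheA7a*, *CheA84a* and *CheA86a*), 5 Npc2 genes rose (*Npc2c* to *Npc2g*) and *Npc2a* fell, and 3 genes of the third list rose: *Or47b* and *Or65a*, receptors of fly-derived odors, and *to*, which encodes a carrier protein that is expressed under sex and feeding control. In that comparison 10.4% of autosomal and 18.3% of X genes rose, and the higher calls of all autosomal genes went down to 253, against 1568, after scaling to the library mean. *Or65a* averaged 56.2% at 1 day and 14.5% at 48hr APF in females, and 61.3% at 1 day and 6.88% at 48hr APF in males, where it was the 1 gene called among the 36. *Npc2f* averaged 38.8% at 1 day and 5.42% at 48hr APF in females.

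In the step to 10-12 days in females, 5 CheA and CheB genes fell (*CheA7a*, *CheA29a*, *CheA46a*, *CheA84a* and *CheA86a*), as did *Npc2d*, *Or47b* and *Or65a*, and in males *CheB53b* fell. Of all genes, 7.07% on autosomes and 7.44% on the X fell in females and 4.14% of autosomal genes fell in males, and after scaling to the library mean 174 autosomal genes were lower in females, against 1064. *Or47b* averaged 28.8% at 10-12 days and 85.5% at 1 day in females, and 31.5% in *elav* females, below *fru P1* females (difference 54.0 points, adjusted p = 0.0176). Between the sexes, *CheA7a*, the CheA and CheB gene on the X, was lower in males at 1 day in both neuron sets (2.12% in males and 39.3% in females in *fru P1*, 0.57% in males and 48.0% in females in *elav*), as were 48.9% of X genes in *fru P1* and 20.9% in *elav* neurons. *CheA75a* was higher in *elav* males (71.7% in males and 30.3% in females) and *CheA86a* higher in 48hr APF males (45.8% in males and 11.6% in females). At 10-12 days 0 of these 36 genes differed between the sexes by limma.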

How the data were processed

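The deposited files are 31 lists of broad H3K9me3 peaks, 1 per library. Per the file headers the authors called them with MACS2 2.1.1.20160309 in broad mode at p cutoffs of 0.01 and, for weak regions, 0.1, keeping 1 tag per position, with a fragment length of 200 bp (140 bp in *elav* male replicate 3). The *fru P1* lists were called against input pooled over replicates of the same sex and stage, the *elav* lists against the input of the same replicate. The spread between *fru P1* libraries of a group, and the SE and p-values that rest on it, thus hold no spread between inputs. The authors' processing notes also name Trimmomatic, Bowtie2 2.2.5, SAMtools 1.2, MACS2 2.1.0 and deepTools. Each deposited row gives a peak's position in dm6, its length, its pileup signal (tags piled up at the summit), its fold enrichment, a ratio over the input, and its p-value and q-value as −log10. Depth is in the headers only, and no sampling interval can be given for a covered percent. File names of 1-day *fru P1* females carry other numbers than the sample titles, and samples were taken from the deposit's own record.

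Coverage of the gene body plus 3 kb flanks was computed from the union of each library's peaks for the genes of the Ensembl annotation of BDGP6 (the dm6 assembly), on 2L, 2R, 3L, 3R, 4 and X. Genes with a mean of at least 1% and coverage in at least 3 libraries (17763 of 18164, with all 52 members) entered 1 limma fit (version 3.58.1, R 4.3.3) with a mean for each of the 8 conditions and no block. p-values were adjusted by Benjamini-Hochberg over all genes of a comparison, and a call is an adjusted p of 0.05 or less, two-sided. The fit was tested on simulated data. Genes named were *lush*, the 3 most and 3 least covered members, all X members, and, in each comparison, the 2 called members with the largest difference in each direction. The clusters join members within 20 kb. In the scaled alternative, coverage was divided by the mean of its library over autosomal genes and multiplied by the average of these means over libraries. No pair of libraries shared more than 0.00538% of its peaks exactly. The members and lists were chosen with earlier results of these data known. Python 3.11.15, numpy 2.4.6, pandas 2.3.3 and matplotlib 3.10.9 were used. Proteins and gene expression were not analysed here.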

Additional observations from a re-analysis of the deposited data

Results flagged for a closer look

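In 27 of 210 groups of 4 libraries checked, 1 library lay apart from the other 3 by Dixon's criterion. Chance meets it in about 1 in 20 independent groups of normal values, which these are not. Windows of clustered members overlap, and where the other 3 libraries are 0 any covered library meets it. The count is thus not to be set against that rate. At 48hr APF, *fru P1* female replicate 1 was apart at the X cluster, with 44.9% at *Obp19a* (others 0 to 7.16%), 40.1% at *Obp19b* (0 to 5.47%), 38.5% at *Obp19c* (0 to 5.49%), 34.3% at *Obp19d* (others 0), 41.9% over the region (0 to 4.32%) and 36.4% as its median over X members (0 to 5.48%). In 48hr APF males, replicate 2 had 25.7% at *Obp19d* and replicate 3 had 13.0% at *Obp18a*, where the others had 0, and replicate 3 had 46.7% at *Obp50d* (others 68.2 to 70.4%).

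In 1-day *fru P1* females, replicate 4 was low at the *Obp50* region with 32.4% (others 79.7 to 87.6%) and at *Obp50c* with 41.6% (87.0 to 91.9%). In 1-day *fru P1* males, replicate 2 had 33.0% at *Obp49a* (45.4 to 47.4%), 18.8% at *Obp93a* (6.69 to 8.39%) and 12.7% at *Obp8a* (others 0), and replicate 1 had 4.52% at *Obp18a* (0 to 0.69%). In 10-12 day males, replicate 4 had 55.4% at the *Obp50* region (21.5 to 25.1%), replicate 3 had 54.2% at *lush* (11.1 to 18.2%) and 4.32% at *Obp8a* (others 0), and replicate 1 had 4.70% at *Obp18a* (others 0).

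In *elav* males, replicate 4 had a median of 30.99% over autosomal members (38.0 to 39.1%) and 5.01% at *Obp93a* (others 0), and replicate 2 had 64.4% at the *Obp57a* to *Obp57c* region (29.1 to 32.8%), 0% at *Obp56h* (40.6 to 44.1%) and 0% at *Obp8a* (16.3 to 18.4%). In *elav* females, replicate 1 had 100% at *Obp50d* (71.6 to 73.6%), replicate 2 had 2.96% at *Obp93a* (others 0) and replicate 4 had 0% at *Obp44a* (9.95 to 11.8%).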

How the results depend on the processing

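Counts of members called moved by over 1.5 times under most alternatives, and the cause was not tested. Without the low-value filter no count moved. Of 34 named calls, 24 held on the arcsine square root scale, 12 after division by the library's mean autosomal coverage, 11 with 1 kb flanks, 8 with the gene body alone, 16 with only the libraries compared, 5 with peaks of fold enrichment of at least 1.5, 13 of 18 with autosomal genes alone, and 0 of 19 with peaks of −log10 p of at least 2.

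For autosomal members, the sex comparison at 48hr APF (0 called) gave 1 on the arcsine scale, after scaling, with 1 kb flanks and with the gene body alone. That at 1 day (0) gave 1 with the gene body and with the enrichment cutoff, and that at 10-12 days (2) gave 1 after scaling and 0 with autosomal genes alone, 1 kb flanks, the gene body, the libraries compared and the enrichment cutoff. The 1-day minus 48hr APF comparison in males (3) gave 0 after scaling, 1 with 1 kb flanks and 1, a member that was lower, with the gene body, and in females (7) gave 4 on the arcsine scale, 0 after scaling, and 3 with 1 kb flanks, the gene body or the libraries compared. The 10-12 day minus 1-day comparison in males (4) gave 2 with 1 kb flanks and 0 after scaling, with the gene body and with the libraries compared. In females (4) it gave 1 on the arcsine scale, with autosomal genes alone and with 1 kb flanks, 2 with the enrichment cutoff, and 0 after scaling, with the gene body and with the libraries compared. *fru P1* minus *elav* in males (0) gave 1 on the arcsine scale, and in females (2) 0 with 1 kb flanks.

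For X members, the sex comparison at 48hr APF (0) gave 2 on the arcsine scale and 1 after scaling, at 10-12 days (5) it gave 3 with 1 kb flanks, 2 with the gene body and 0 with the enrichment cutoff, and at 1 day (2) 0 with that cutoff. In *elav* neurons (2) it gave 1 on the arcsine scale, with 1 kb flanks, the libraries compared or the enrichment cutoff, and 0 with the gene body. 1-day minus 48hr APF in females (5) gave 3 on the arcsine scale, 0 after scaling or the enrichment cutoff, 2 with 1 kb flanks or the gene body and 1 with the libraries compared. 10-12 day minus 1-day in females (1) gave 0 on the arcsine scale, after scaling, and with 1 kb flanks, the libraries compared or the enrichment cutoff, 10-12 day minus 48hr APF in females (1) gave 0 on the arcsine scale and with the gene body, the libraries compared or the enrichment cutoff and 3 after scaling, and *fru P1* minus *elav* in females (0) gave 1 with the gene body. With −log10 p of at least 2, 0 members were called in any comparison.

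The median of autosomal members with the gene body alone was 23.4% in males and 15.3% in 48hr APF females, 13.9% in males and 11.8% in females at 10-12 days and 30.6% in *elav* males, and that of X members was 66.6% in 1-day *fru P1* females. With −log10 p of at least 2, the X medians were 0% in 1-day males, 2.66% in 1-day females, 0% in 10-12 day females, 0% in *elav* males and 10.3% in *elav* females, and members with a peak numbered 1 in 1-day *fru P1* females, *elav* males and *elav* females and 0 elsewhere. With at least 50% of the gene body required under peaks, the member genes counted were 20 (male) and 15 (female) for 48hr APF. For 10-12 days they were 13 and 13, and for *elav* neurons 25 and 27, with the male condition first. With any gene body peak accepted but required in every library, the counts were 12 and 12 for 48hr APF. They were then 20 and 22 for 1-day *fru P1*, 6 and 15 for 10-12 days, and 16 and 18 for *elav* neurons.

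The direction turned for *Obp93a* between the sexes at 10-12 days with the gene body alone (-0.94 points), for *Obp8a* in *elav* neurons (1.77), *Obp83cd* in males at 1 day minus 48hr APF (-1.57) and at 10-12 days minus 1 day (3.22) with −log10 p of at least 2, and for *Obp18a* in females at 1 day minus 48hr APF with the enrichment cutoff (-2.01).

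Leaving out 1 library at a time, the autosomal calls ranged from 2 to 7 for 1-day minus 48hr APF in females, from 0 to 6 in females and 0 to 7 in males for 10-12 day minus 1-day, from 0 to 1 for 10-12 day minus 48hr APF in males, from 0 to 3 for *fru P1* minus *elav* in females, and from 0 to 1, 0 to 1 and 0 to 3 between the sexes at 48hr APF, 1 day and 10-12 days. The X calls ranged from 1 to 6 and 0 to 4 in females for 1-day and 10-12 day minus 48hr APF, from 0 to 1 for *fru P1* minus *elav* in females, and from 3 to 5 at 10-12 days and 1 to 2 in *elav* neurons between the sexes.

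Libraries with the same replicate number did not deviate together: the 105 such pairs had a median correlation of -0.001 (1 over 0.1), against 0.006 for 315 other pairs. Whether libraries of the same number were collected or processed together cannot be told from these correlations. With a replicate block, 29 of the 34 named calls held, the autosomal counts were 0 between the sexes at 10-12 days and 1 for 10-12 day minus 1-day in females, and the X count for 10-12 day minus 48hr APF in females was 0..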
